A study of Mus musculus with 3 samples.

Results

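Serum response factor (SRF), its coactivators of the myocardin family, 3 heart genes tied to SRF and 3 genes of the early response were read in mouse embryo hearts with and without Lrrc10, a leucine-rich repeat gene of cardiomyocytes. The 10 genes are Srf, Myocd, Mkl1, Mkl2, Hopx, Smyd1, Fhl2, Ctgf, Cyr61 and Egr1. All probes that carry 1 of these names (or the newer names Mrtfa, Mrtfb, Ccn1 and Ccn2) were taken, which gave 17 of the 41174 gene probes on each array, by a rule that uses names and no measured value. Of the 17, 14 were bright enough to be tested.

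Hearts were collected at embryonic day 15.5 from matings of Lrrc10+/- parents on a C57BL/6 background. On each of 3 arrays with 2 colours, RNA of 2 pooled Lrrc10-/- hearts was labelled with Cy5 (red) and RNA of 2 pooled Lrrc10+/+ littermate hearts with Cy3 (green). No agent was given. Beside the embryonic age, which was taken, the wild-type labels carry an adult one. Each array is 1 replicate, described in the methods as an independent biological replicate, and its value is the log2 ratio of Cy5 over Cy3. A value above 0 is a higher signal in the channel labelled Lrrc10-/-. Dyes were never exchanged, so dye and genotype cannot be told apart. Whole hearts mix cell types, and fewer cells of a type and less RNA per cell cannot be told apart.

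In the Cy5 channel the median gene spot reached 149 on replicate 1, 335 on replicate 2 and 130 on replicate 3, and in the Cy3 channel 89.6, 340 and 102. With 3 arrays, their number limits the precision of every value. Lrrc10 itself went against its labels. Its log2 ratio was 3.99, 4.78 and 4.45, a mean of 4.41 ± 0.40 (SD, n = 3, limma adjusted p = 0.000387), so its signal was higher in the channel labelled Lrrc10-/- on every array. The call was lost with scaling between arrays (adjusted p = 0.252), with the software's processed signals (0.270) and with the methods' t-test (0.504), and kept with median centring (0.000365). In the settings that lost the call, 0 probes of the whole array were called higher and 0 lower. The Lrrc10 ratio there was 4.58, 5.21 and 4.41, in the order given. Losing the call in settings that call nothing cannot show whether the Lrrc10 result is fragile. The sources used here do not say whether the Lrrc10 probe lies in the deleted part of the gene. If the channel labels were exchanged, every direction given here would switch. For some genes of the actin cytoskeleton the sign found here under the labels is opposite to the one the study gives for these arrays. Actc1 (-0.17, adjusted p = 0.557) and Actn2 (-0.28, adjusted p = 0.477) lay below 0 without being called. Actc1 read -0.23, -0.12 and -0.16. On replicates 2 and 3 this is close to the medians of probes saturated in both channels, -0.12 and -0.16. Actn2 read -0.59, -0.28 and 0.049, so its sign turned on replicate 3. Actg1 lay above 0 at 0.19 (adjusted p = 0.527), but its second probe had a mean of -0.27 (adjusted p = 0.417). The labelled tissue was borne out by cardiomyocyte markers: 8 of 8 were well above background in both channels on all arrays, and none of the 4 lung markers was. So were 4 of 6 liver markers, 3 of 5 markers of glia and neurons and 2 of 6 of skeletal muscle. The markers thus do not show that the pools were free of other tissue. Liver markers varied between arrays, with median log2 ratios of 0.76, -2.35 and 0.25.

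SRF is a transcription factor that binds a short DNA element, the CArG box, in front of genes of the contractile apparatus, of the actin cytoskeleton and of the early response to growth signals. It has little power of its own to choose between these programmes. Myocardin, which is restricted to heart and smooth muscle, and the related factors MKL1 and MKL2, which leave the cytoplasm when actin polymerises and free actin falls, direct it to muscle and cytoskeletal genes. Factors of the ETS family, such as ELK1, direct it to the early genes.

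RefSeq windows that run from 250 bases before to 50 bases after a transcript start (assembly GRCm38.p6) were searched for the CArG box, which is CC and GG around a run of A and T bases and reads alike on both strands. At least 1 window was held for 7 of the 10 genes, 12 windows in all. Myocd, Ctgf and Egr1 had none and so were not searched. The box was found for 3 of the 7 searched genes, Srf, Hopx and Fhl2. Of all 27025 genes with a window, 1.81% had one, and of all 32851 windows 1.63% held one. A match describes these letters alone and does not show that SRF binds there. The 120 bases before each of these starts are printed because they show where the box lies in the genes that both carry it and were measured here. All are on the minus strand, written 5′ to 3′, with the box in capitals.
Srf, chr17:46556163-46556282: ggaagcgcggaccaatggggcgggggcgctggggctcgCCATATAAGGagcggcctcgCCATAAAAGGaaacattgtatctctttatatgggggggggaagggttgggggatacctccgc
Hopx, second start, chr5:77115124-77115243: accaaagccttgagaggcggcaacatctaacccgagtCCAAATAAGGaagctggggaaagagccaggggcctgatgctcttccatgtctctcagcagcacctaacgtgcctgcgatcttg
Fhl2, first start, chr1:43163962-43164081: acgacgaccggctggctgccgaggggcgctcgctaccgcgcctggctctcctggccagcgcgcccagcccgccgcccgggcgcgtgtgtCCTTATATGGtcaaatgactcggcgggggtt
Fhl2, second start, chr1:43196762-43196881: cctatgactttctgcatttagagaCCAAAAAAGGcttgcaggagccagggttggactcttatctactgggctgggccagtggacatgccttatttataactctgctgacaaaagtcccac
The Srf window held 2 boxes, which began 82 and 62 bases before the start. Those of Fhl2 began 31 and 96 bases before its 2 starts, and that of Hopx 83 bases before its second start, with none at its first.

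No gene of the group changed past the threshold in hearts labelled Lrrc10-/-. Of the 14 tested probes, 0 were called higher and 0 lower by limma at an adjusted p under 0.05, where 1.39% of the 28330 tested probes were called higher and 0.00353% lower. The lowest adjusted p of a member was 0.235. Without adjustment, 2 probes passed a p of 0.05 in the higher direction (all probes, 9.07%) and 1 in the lower direction (4.26%). Mean log2 ratios ran from -0.33 to 0.37, with a median of 0.015 against 0.013 over all tested probes. Of the 14 means, 8 lay above 0 and 6 below.

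Agreement between arrays was limited. There were 4 probes above 0 on all 3 arrays (all probes, 19.1%) and 2 below 0 on all 3 (17.4%), while 8 changed sign between arrays. The 95% intervals reached 0.26 to 0.49 to either side of the mean. The smallest change called anywhere on the array was 0.638, and that size lay inside the interval of 1 member probe, a Myocd probe. The interval of Smyd1 A_51_P468054 ended just short of it, at 0.635. The Hopx and Fhl2 intervals rest partly on saturated spots, so they cannot exclude a change of that size. The scanner software's own test, made within 1 array, gave a p under 0.05 at 8 of 42 member spots (all tested probes, 25.0%), and no probe passed it on all arrays. The 8 spots belonged to both probes of Myocd and of Mkl1 and to Mkl2, Ctgf, Cyr61 and Egr1, with 3 higher and 5 lower. By the software's ratio, 0 member probes were at least 1.2-fold higher on all arrays (all probes, 3.62%) and 0 at least 1.2-fold lower (1.71%).

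**Figure D1:**
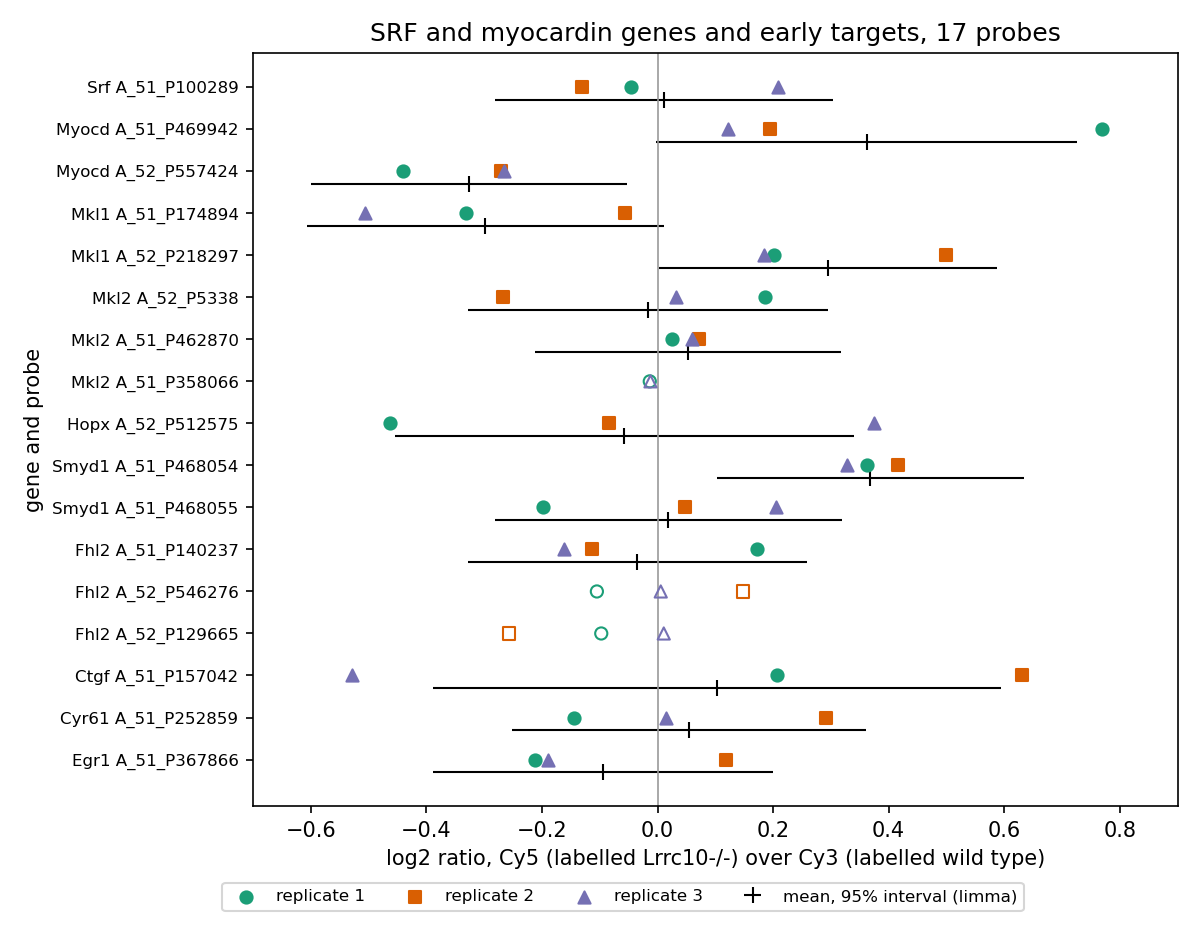
Log2 ratios of Cy5 (labelled Lrrc10-/-) over Cy3 (labelled wild type) for the 17 probes, 1 coloured point per array, with the limma mean and its 95% interval in black. Open points are the 3 probes too dim to test. Of the 14 tested probes, 8 have points on both sides of 0, and the probes of Myocd and of Mkl1 lie on opposite sides.

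Srf gave ratios on both sides of 0 with a mean close to it. Its probe (A_51_P100289, chromosome 17, 46683788 to 46683795 in mm9, an entry shorter than the 60 bases of the probe) gave processed signals of 10414, 14957 and 22936 in Cy5 and 8964, 14057 and 20568 in Cy3. Signals differed between arrays by about the same factor in both channels. Per array, the log2 ratio was -0.046, -0.13 and 0.21, a mean of 0.011 ± 0.18 (SD, n = 3) with a 95% interval of -0.28 to 0.30 (adjusted p = 0.981). Replicate 3 alone was above 0, and without it the mean was -0.088. The software's log2 ratios were instead above 0 on all arrays (0.22, 0.089 and 0.16), with a mean of 0.15.

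**Figure D2:**
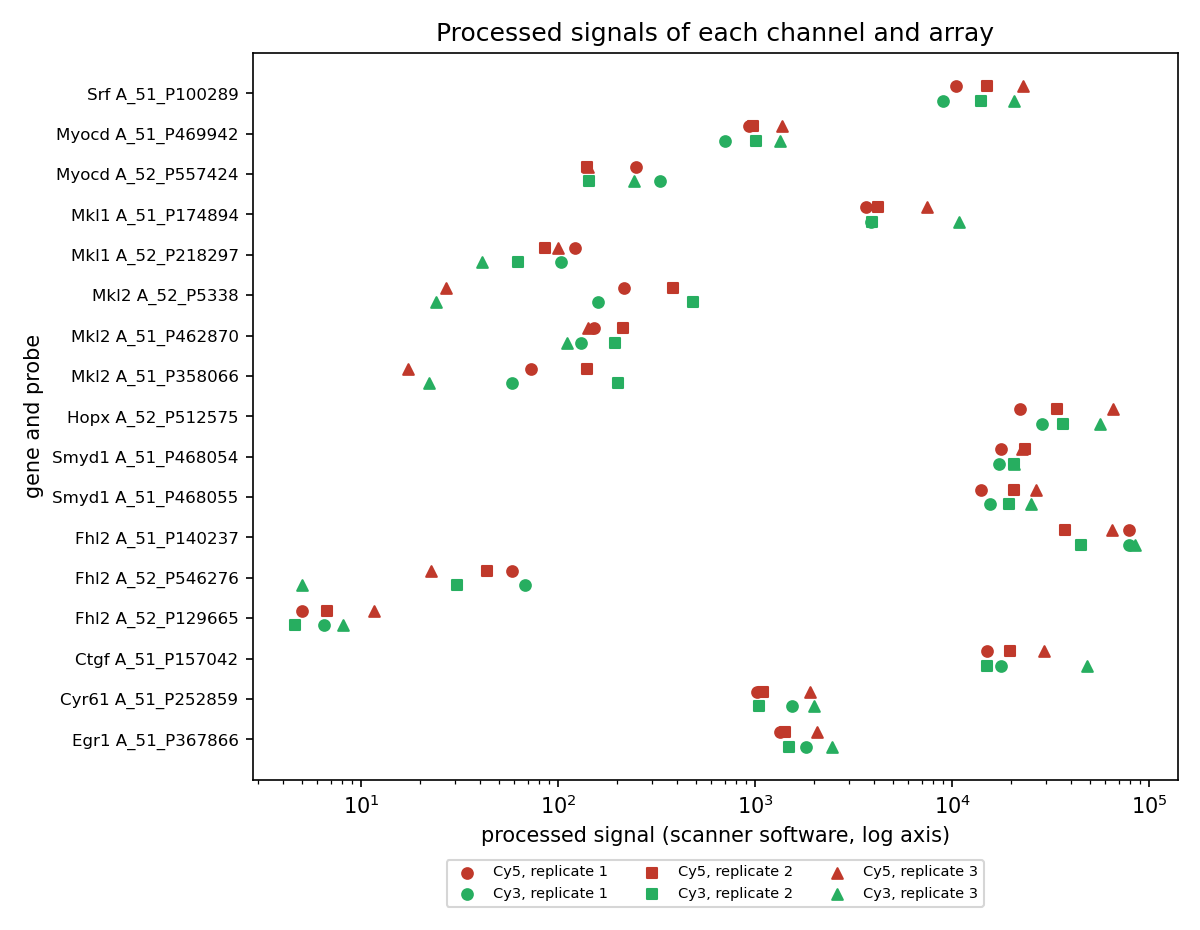
Processed signals of the 17 probes on a log axis, Cy5 in red and Cy3 in green, with 1 symbol per array. Within an array the red and green symbols of most bright probes nearly coincide, and symbols differ more between arrays. Levels of different probes are not comparable.

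Myocd, the coactivator of heart and smooth muscle, gave opposite readings from its 2 probes. Opposite signs alone were common, in 46.9% of all pairs of tested probes of 1 gene. A_51_P469942 (chromosome 11, 64990406 to 64990465) had processed signals of 934, 981 and 1373 in Cy5 and 701, 1016 and 1343 in Cy3. Its log2 ratio was 0.77, 0.19 and 0.12, a mean of 0.36 ± 0.36 (SD, n = 3, adjusted p = 0.378). All arrays lay above 0, but replicate 1 stood far over the others, and without it the mean was 0.16. With the software's processed signals the mean was 0.13.

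The second Myocd probe, A_52_P557424 (64992282 to 64992341), lay below 0 on every array. Cy5 read 249, 140 and 141 as processed signals, against 331, 144 and 242 for Cy3. As log2 ratios the arrays gave -0.44, -0.27 and -0.27, a mean of -0.33 ± 0.099 (SD, n = 3), with an unadjusted p of 0.0257 and an adjusted p of 0.297. Both probes carry the same RefSeq transcript in the files and have a similar base content, 43.3% and 45% G or C. They lie apart in mm9, and the first 30 bases of each are printed because the reading of the gene depended on which sequence was used.
Myocd A_51_P469942: gtagttttccaaacgagaacacaattgcac
Myocd A_52_P557424: aagtcttattgaattctcacagccccatcg
The first probe exceeded the second by 1.21, 0.47 and 0.39 on the log2 scale, a mean difference of 0.69 ± 0.45 (SD, n = 3). The exact two-sided sign-flip test gave p = 0.25, the smallest that 3 arrays allow. Without replicate 1 the mean difference was 0.43, and with the processed signals it was 0.82, -0.016 and 0.81, with the order of the probes turned on replicate 2. Among 12409 pairs of tested probes of 1 gene, 3.43% differed at least as much.

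Mkl1, also known as Mrtfa, was split in the same manner. A_51_P174894 (chromosome 15, 80842711 to 80842753, an entry shorter than the probe) had processed signals of 3669, 4208 and 7450 in Cy5 and 3884, 3930 and 10804 in Cy3. Its log2 ratio was -0.33, -0.057 and -0.51, a mean of -0.30 ± 0.23 (SD, n = 3, adjusted p = 0.391). It was below 0 on all arrays after loess, whereas the software's ratio of replicate 2 was above 0 and its mean was -0.17.

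The other Mkl1 probe, A_52_P218297 (80846691 to 80846750), lay above 0 on every array. Processed Cy5 signals of 122, 85.3 and 100.2 stood against Cy3 signals of 103, 62.6 and 41.3. The log2 ratio was 0.20, 0.50 and 0.18, a mean of 0.30 ± 0.18 (SD, n = 3), with an unadjusted p of 0.0483 and an adjusted p of 0.372. The processed signals gave a mean of 0.66, the largest shift of a member probe over all alternatives run, with replicate 3 at 2.43-fold. The files assign the probes to different RefSeq transcripts of the gene. Their first 30 bases, shown for the same reason as those of Myocd, were these.
Mkl1 A_51_P174894: tctgtgctgactcaatgagagaagggatag
Mkl1 A_52_P218297: gtcactgactctacagggactcacctcatc
They differed by 0.53, 0.56 and 0.69, a mean of 0.59 ± 0.085 (SD, n = 3, exact two-sided p = 0.25), and 5.25% of all pairs of probes of 1 gene differed at least as much. With the processed signals the difference was 0.32, 0.35 and 1.81, a mean of 0.83, so its sign held on every array while its size rested largely on replicate 3.

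Mkl2, or Mrtfb, had means close to 0 on both tested probes. A_51_P462870 (chromosome 16, 13332910 to 13332969) gave log2 ratios of 0.026, 0.071 and 0.060, a mean of 0.052 ± 0.024 (SD, n = 3, adjusted p = 0.880), with processed signals of 153, 215 and 141 in Cy5 and 130, 194 and 111 in Cy3. After loess the 3 arrays lay closer together than for any other tested member probe. The interval of -0.21 to 0.32 came from the spread shared over all probes. The software's log2 ratios lay further apart, at 0.23, 0.14 and 0.35, with a mean of 0.24. A_52_P5338 (entry of 13326639 to 13332140, far longer than the probe) gave 0.19, -0.27 and 0.032, a mean of -0.017 ± 0.23 (SD, n = 3, adjusted p = 0.971). Processed Cy5 read 216, 385 and 27.01, against 159, 487 and 24.0 for Cy3, and Cy5 was not well above background on replicate 3. The third probe, A_51_P358066 (entry of 13409769 to 13412310), was not well above background on replicate 3 and was not tested. Its ratio was -0.013 and -0.012 on replicates 1 and 3, and the spot of replicate 2 was dropped for non-uniformity.

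**Figure D3:**
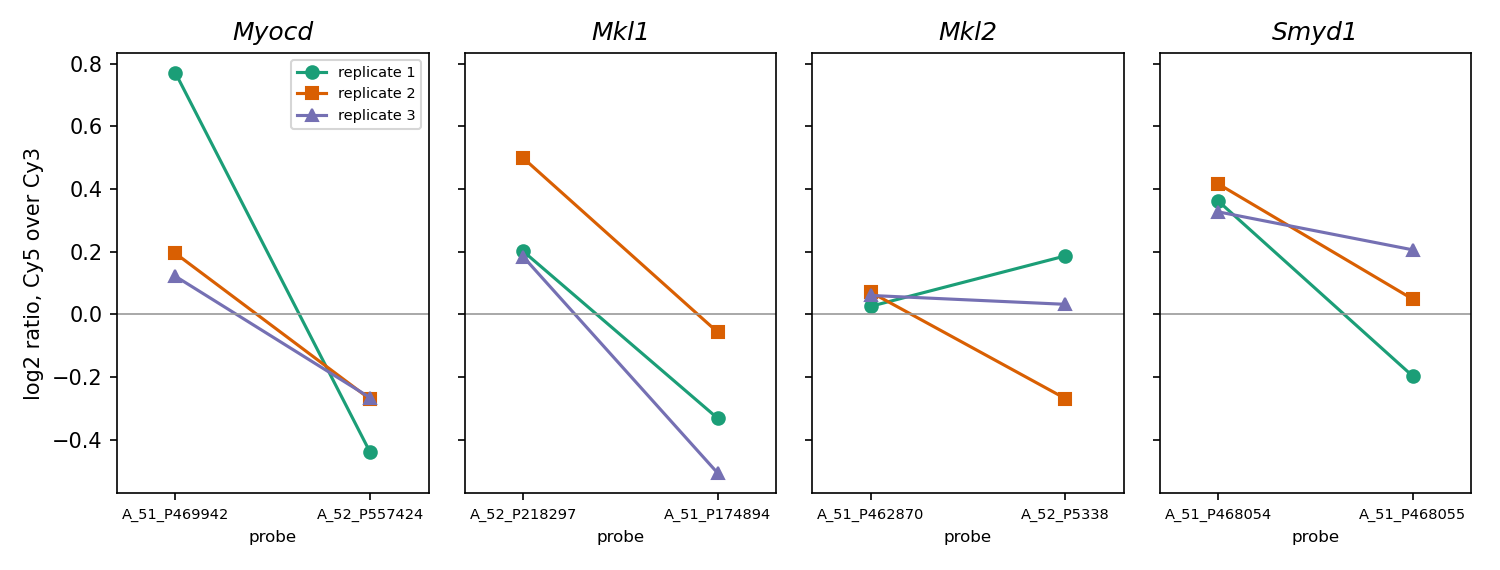
Log2 ratios of the tested probe pairs of Myocd, Mkl1, Mkl2 and Smyd1, with 1 line per array. For Myocd, Mkl1 and Smyd1 the left probe is above the right one on 3 of 3 arrays, for Mkl2 on 2 of 3.

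Smyd1, a methyltransferase of heart and skeletal muscle that is needed for growth of the ventricles, held the largest mean of the group, on 1 of its 2 probes. A_51_P468054 (chromosome 6, 71165316 to 71165375) had processed signals of 17772, 23565 and 22635 in Cy5 and 17328, 20612 and 20667 in Cy3. Its log2 ratio was 0.36, 0.42 and 0.33, a mean of 0.37 ± 0.045 (SD, n = 3, unadjusted p = 0.0133, adjusted p = 0.235). Cy5 was higher on all 3 arrays and the arrays agreed closely, yet 9.96% of all tested probes had a mean at least as far from 0. The processed signals, which differ in both background subtraction and dye normalization, gave a mean of 0.12, and median centring gave 0.29.

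A_51_P468055 (71165337 to 71165396), which overlaps the first Smyd1 probe, had a mean near 0. Cy5 read 14016, 20699 and 26814, against 15583, 19372 and 25181 for Cy3. Per array, the log2 ratio was -0.20, 0.048 and 0.21, a mean of 0.019 ± 0.20 (SD, n = 3, adjusted p = 0.965). The probes share 39 of their 60 bases and are shifted by 21, so they differ in the pieces printed here, the first 21 bases of one and the last 21 of the other.
Smyd1 A_51_P468055: tgcttgtgtatctgtgtaggc
Smyd1 A_51_P468054: ttaggttttgcagactggggt
A_51_P468054 exceeded its neighbour by 0.56, 0.37 and 0.12, a mean of 0.35 ± 0.22 (SD, n = 3, exact two-sided p = 0.25), and 21.5% of probe pairs of 1 gene differed by as much or more. With the processed signals the difference was 0.19, 0.098 and 0.041, a mean of 0.11. Over all such pairs the median difference was 0.18, and 46.9% of pairs had means of opposite sign. Nearest to the pattern of A_51_P468054, by Euclidean distance over the 3 log2 ratios, were Fgf23 (0.036), NAP029329-1 (0.044), a probe without a gene symbol, and Cygb (0.058).

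Hopx, a small homeodomain protein that binds SRF and restrains its activity in cardiomyocytes, varied widely between arrays. A_52_P512575 (chromosome 5, 77516460 to 77516519) had processed signals of 22109, 34219 and 65626 in Cy5 and 28726, 36562 and 56429 in Cy3. As log2 ratios the arrays gave -0.46, -0.084 and 0.37, a mean of -0.057 ± 0.42 (SD, n = 3, adjusted p = 0.918). Replicates 1 and 2 lay below 0 and replicate 3 above it. Cy5 was saturated on replicate 3, so that the value there is a lower bound, and without replicate 1 the mean was 0.15.

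Fhl2, a LIM protein of heart muscle that binds SRF and is itself switched on through it, could be measured on few spots. A_51_P140237 (chromosome 1, 43179994 to 43180053) had processed signals of 78766, 37339 and 65003 in Cy5 and 79411, 45353 and 85331 in Cy3. Cy5 was saturated on replicates 2 and 3 and Cy3 on replicate 3, so replicate 1, at 0.17, is the only unbounded ratio. The software's log2 ratio on replicate 1 was instead -0.012, so the sign of that reading depended on the normalization. The ratio of -0.11 on replicate 2 is a lower bound, and lies close to the -0.12 of probes saturated in both channels there. That of replicate 3, -0.16, equals the median of -0.16 that 385 probes saturated in both channels had on that array, and is no measure of the gene. The mean of -0.035 ± 0.18 (SD, n = 3, adjusted p = 0.933) holds these values. The other probes of Fhl2, A_52_P129665 (43182667 to 43182726) and A_52_P546276 (43183994 to 43184053), carry a cDNA accession and were too dim to test.

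Ctgf and Cyr61, now Ccn2 and Ccn1, encode matricellular proteins that are induced early by growth factors and by stretch through SRF and through YAP and TEAD factors. Ctgf (A_51_P157042, chromosome 10, 24318281 to 24318340) had the widest spread of the group. Processed Cy5 signals of 15041, 19676 and 29248 stood against Cy3 signals of 17777, 15053 and 48228. The log2 ratio was 0.21, 0.63 and -0.53, a mean of 0.10 ± 0.59 (SD, n = 3, adjusted p = 0.873). Replicates 2 and 3 pointed in opposite directions, and on replicate 3 the processed Cy3 signal was 1.65-fold that of Cy5. The processed signals turned the mean to -0.19, as did leaving out replicate 2, to -0.16.

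Cyr61 (A_51_P252859, chromosome 3, 145310187 to 145310246) had processed signals of 1023, 1099 and 1890 in Cy5 and 1531, 1048 and 1985 in Cy3. Per array, the log2 ratio was -0.14, 0.29 and 0.015, a mean of 0.054 ± 0.22 (SD, n = 3, adjusted p = 0.895). Replicate 1 was the low array, with a software log2 ratio of -0.58. The mean was -0.19 with the processed signals and -0.022 with median centring. Egr1, a zinc finger factor induced within minutes of stimulation, was read by A_51_P367866 (chromosome 18, 35024395 to 35024454) at 1335, 1411 and 2051 in Cy5 and 1823, 1483 and 2458 in Cy3. Its log2 ratio was -0.21, 0.12 and -0.19, a mean of -0.094 ± 0.18 (SD, n = 3, adjusted p = 0.790), and replicate 2 alone was above 0. All of its settings gave a mean below 0, from -0.26 to -0.035, and 0 of them called it.

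**Figure D4:**
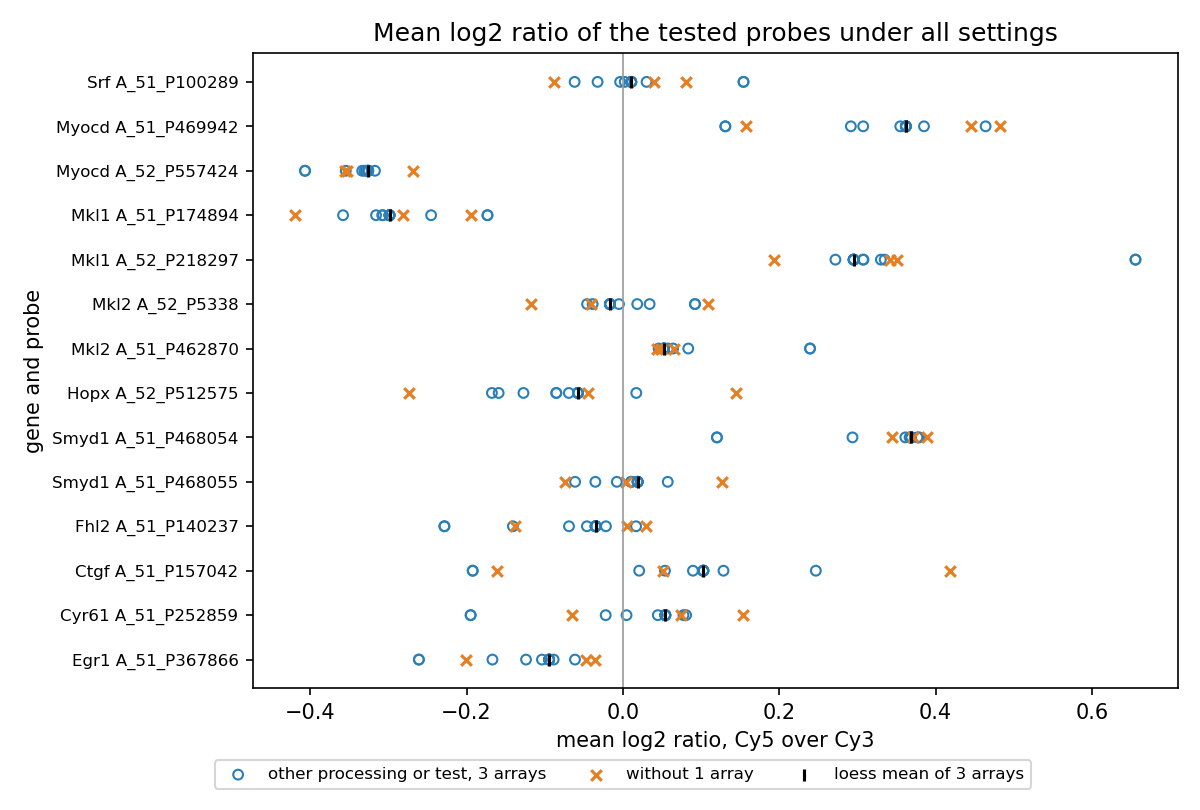
Mean log2 ratio of the 14 tested probes with the loess normalization (black bars), under other processing or tests of all 3 arrays (open circles) and without 1 array (crosses). The paired probes of Myocd and of Mkl1 stay on opposite sides of 0. Srf, Mkl2 A_52_P5338, Hopx, Smyd1 A_51_P468055, Fhl2, Ctgf and Cyr61 cross it.

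Other genes of the pathway were read in 4 lists, with 1 probe per gene, the brightest tested one. In these lists 0 genes were called higher and 0 lower by limma at an adjusted p under 0.05, where 1.79% of 19262 genes were called higher and 0.00519% lower. The median log2 ratio of all tested genes was 0.028. Without replicate 3, calls over all probes went from 395 to 1556 higher and from 1 to 248 lower, and genes called in that setting are named with their list. Without adjustment 10.7% of all genes passed a p of 0.05 in the higher direction and 4.15% in the lower one.

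Among regulators and partners of SRF, 25 of 27 genes were tested, with a median of -0.030. Unadjusted, 2 passed as higher and 2 as lower. Gata4, a zinc finger factor that acts with SRF on cardiac genes, had the highest mean, 0.62 ± 0.47 (SD, n = 3, adjusted p = 0.211), from 1.14, 0.51 and 0.22. Its second probe did not follow, with a mean of -0.17. Abra, an actin-binding activator of the MKL factors, had 0.41 ± 0.27 (adjusted p = 0.272). At the low end were Elk3, an ETS partner of SRF, at -0.41 ± 0.21 (adjusted p = 0.239), and Hdac2, a histone deacetylase recruited by HOPX, at -0.32 ± 0.43 (adjusted p = 0.471). Without replicate 3, Gata4 (0.83) and the kinase gene Rock1 (0.73) were called higher (all genes, 6.28%) and Hdac2 (-0.57) lower (0.836%). With all arrays Rock1 had 0.33 ± 0.89 (adjusted p = 0.667), from 1.29, 0.18 and -0.48, and Hdac2 also turned sign on replicate 3, at 0.17.

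The early genes that share the timing of Egr1 had a median of -0.0039 over 27 tested of 31, a sign that changed between settings (-0.070 to 0.064). Unadjusted, 4 passed as higher and 0 as lower. Dusp1, a phosphatase of MAP kinases, had 0.39 ± 0.22 (SD, n = 3, adjusted p = 0.260), and without replicate 3 it was called at 0.51. Junb, a subunit of AP-1, had 0.35 ± 0.21 (adjusted p = 0.313), although its other probe had a mean of -0.27. The lowest were the orphan receptor gene Nr4a2, at -0.25 ± 0.079 (adjusted p = 0.409), and the growth inhibitor Btg2, at -0.22 ± 0.14 (adjusted p = 0.487), whose other probes were at 0.24 and 0.55.

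Contractile and cytoskeletal targets leaned below 0 without any call. All 41 were tested, 27 means lay below 0 (all genes, 44.3%), and the median was -0.12. On all 3 arrays 17 genes were lower (all genes, 16.0%) and 2 were higher (21.4%). Unadjusted, 3 passed as lower and 0 as higher. The list median stayed below 0 under every alternative, from -0.21 to -0.068. The list holds several genes that the study itself names from these samples, such as Actc1 and Vcl, and so is no independent evidence of a direction. As given above, the sign of Actc1 under the labels is opposite to the one the study gives for these arrays.

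Saturation bears on this list directly. Probes saturated in both channels had median log2 ratios of -0.33, -0.12 and -0.16 on replicates 1, 2 and 3, whatever their gene. In the list, 9 genes were saturated in both channels on at least 1 array, and Acta2, Nppa and Tnnt2 were so on all. Among the 29 genes with no saturated spot, 18 means lay below 0, the median was -0.12, 10 were lower on all arrays (all such genes, 15.5%) and 2 were higher (21.8%). The medians of the cardiomyocyte markers, -0.33, -0.12 and -0.16, were those of saturated probes. Smooth muscle markers, all members of this list themselves, had -0.13, -0.13 and -0.16 and so are no separate measure. Mesenchymal markers had -0.28, -0.13 and -0.28, and their part in the lean of the list was not tested.

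Tagln, an actin-binding protein of smooth muscle, had the lowest mean of the list, -0.49 ± 0.091 (SD, n = 3, adjusted p = 0.132), from -0.59, -0.43 and -0.44. All arrays lay below 0, but its second probe had a mean of 0.13. Vcl, the adhesion protein vinculin, had -0.46 ± 0.39 (adjusted p = 0.291), and its second probe -0.35. The highest were Pdlim5 (0.27 ± 0.54, adjusted p = 0.594), a scaffold of the Z-disc, and Dstn (0.27 ± 0.47, adjusted p = 0.561), an actin-severing protein, each negative on replicate 1. Without replicate 3, this Pdlim5 probe was at -0.019 and Dstn at 0.030. The other tested Pdlim5 probes had means of 0.18, 0.36, 0.31 and 0.034. The one at 0.36 lay above 0 on every array (0.34, 0.20 and 0.52). In that setting Tagln (-0.51) and the LIM gene Csrp1 (-0.76) were called lower (all genes, 0.836%). With all arrays Csrp1 had -0.38 ± 0.67 (adjusted p = 0.529), and replicate 3 was above 0 at 0.39.

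Relatives of Ctgf and Cyr61 and targets of YAP and TEAD had a median of -0.11 over 21 tested of 25. Means lay below 0 for 15 genes (all genes, 44.3%). On all arrays 8 were lower (all genes, 16.0%) and 2 higher (21.4%), and 1 passed as higher and 2 as lower without adjustment. Wwtr1, the coactivator TAZ, had the lowest mean, -0.60 ± 0.47 (SD, n = 3, adjusted p = 0.226), from -0.085, -0.71 and -0.998. Its second probe had a mean of 0.0013. Axl, a receptor kinase, had -0.33 ± 0.18 (adjusted p = 0.324). Above 0 were Edn1, which encodes endothelin, at 0.34 ± 0.27 (adjusted p = 0.355), and Tead2, at 0.23 ± 0.13 (adjusted p = 0.466), whose second probe was at -0.42.

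**Figure D5:**
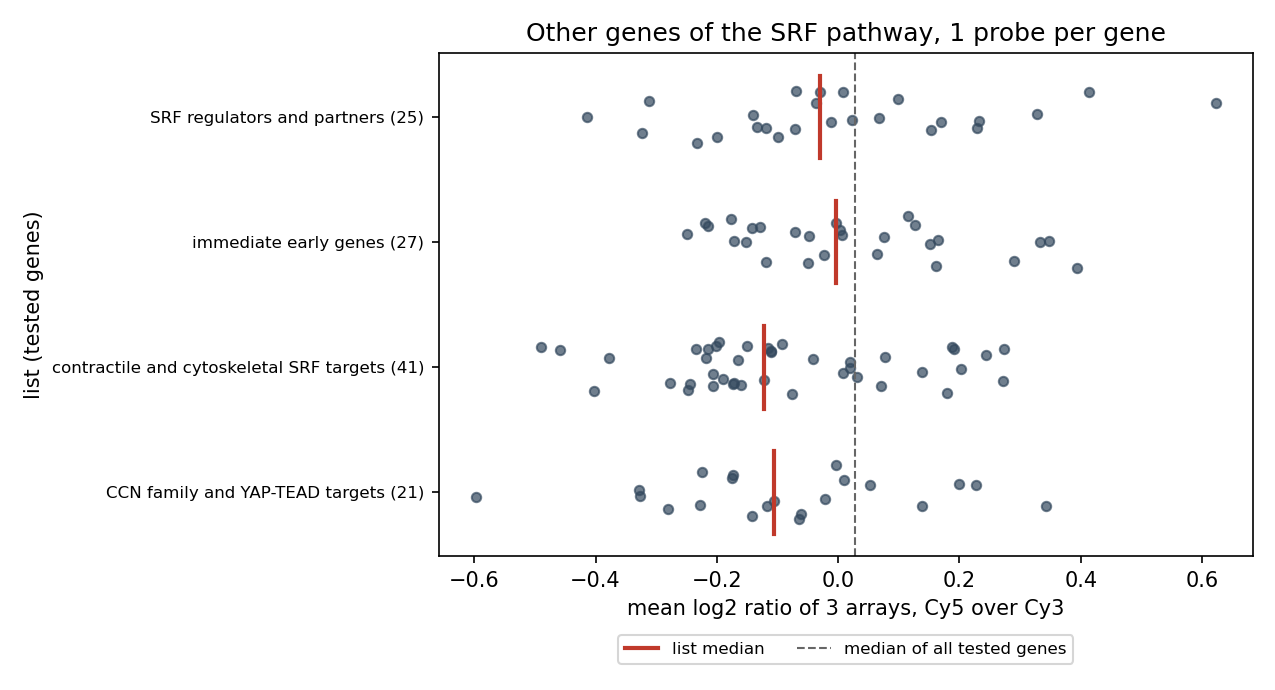
Mean log2 ratios of tested genes in 4 lists of the SRF pathway, 1 point per gene, spread vertically at random within a list. Red bars are list medians (-0.030, -0.0039, -0.12 and -0.11 from top to bottom) and the dashed line is the median of all tested genes, 0.028.

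Genes with a CArG box in a start window had a median ratio and a share of calls near those of other genes. Of 203 tested genes with a box, 2 were called higher (Npm3 and Lgr4) and 0 lower, which is 0.985%, against 1.53% of 12143 tested genes whose windows held none. The median log2 ratio was 0.011 with a box and 0.016 without. Values between the quartiles ran from -0.14 to 0.19 with a box and from -0.12 to 0.16 without one, so both groups were centred near 0.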

How the data were processed

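The scanner files deposited by the authors hold spot intensities of 3 Agilent 4x44K arrays. Per the file headers, replicate 1 was read with Feature Extraction 9.1.3.1 and replicates 2 and 3 with 10.7.3.1 (the submitters' processing notes name 9.5). The processed intensities were background-subtracted and dye-normalized by the authors' software, and the deposited log10 ratio and p-value of each spot are that software's. The deposited series table equalled these ratios. Probe positions are mm9, per the file headers.

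Here, mean intensities were corrected with normexp (offset 50) and loess-normalized in limma 3.58.1 (R 4.3.3), with control spots at weight 0 and non-uniform spots dropped. Tested probes were well above background in at least 1 channel throughout the 3 arrays. Log2 ratios were tested against 0 (lmFit, eBayes, two-sided), with Benjamini-Hochberg adjustment over 28330 probes and a threshold of 0.05. The procedure was tested on simulated data. Saturated spots were kept. RefSeq (GRCm38.p6) matched 26879 of 27340 accessions. All member probes are named, and of each list the 2 highest and 2 lowest genes not saturated in both channels on all arrays. Rock1 and Csrp1 (called without replicate 3), Npm3 and Lgr4, Actc1, Actn2 and Actg1, and second probes, were named after their values were seen. Hdac1, Dusp5 and Nov were not analysed here. The members and lists were chosen with earlier results of these data known. Alternatives covered background, normalization, filters, tests, weights, software version and each replicate left out.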

Additional observations from a re-analysis of the deposited data

How the results depend on the processing

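Over 15 alternatives, 210 values of member probes were recomputed: 185 kept their direction, 25 reversed, and 0 were called (lowest adjusted p, 0.0826, for Myocd A_51_P469942 without replicate 3). Several settings changed only the filter, the test or the handling of non-uniform spots, so the member means could not reverse there. These were no filter, a signal of at least 20, non-uniform spots kept, an intensity trend and the methods' t-test. The 185 include these unmoved values, and the series table repeats those of the processed signals. Means reversed with median centring (Srf -0.062, Mkl2 A_52_P5338 0.018, Smyd1 A_51_P468055 -0.061, Cyr61 -0.022) and with the processed signals and the identical series table (Mkl2 A_52_P5338 0.092, Ctgf -0.19, Cyr61 -0.19). Others reversed with array weights (Srf -0.032, Smyd1 A_51_P468055 -0.0077), with scaling between arrays (Hopx 0.017) and with software version as a block (Srf -0.0035, Mkl2 A_52_P5338 0.034, Smyd1 A_51_P468055 -0.035, Fhl2 0.017). The mean of all tested probes of a gene, not among the 15, put Mkl2 at 0.018, between its probes at -0.017 and 0.052. Leaving out 1 array in turn gave -0.088 to 0.081 for Srf, -0.12 to 0.11 for Mkl2 A_52_P5338, -0.27 to 0.15 for Hopx, -0.075 to 0.13 for Smyd1 A_51_P468055, -0.14 to 0.029 for Fhl2, -0.16 to 0.42 for Ctgf, -0.065 to 0.15 for Cyr61 and -0.019 to 0.52 for Pdlim5. The cause was not tested. The ratio of Lrrc10 stayed above 0 but was not called with the processed signals or the series table (5.21, adjusted p = 0.270), with scaling (4.58, adjusted p = 0.252) or with the methods' t-test (4.41, adjusted p = 0.504).

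With 1 array left out, calls ranged from 0 to 2 higher and 0 to 1 lower among SRF regulators, 0 to 1 higher among early genes and 0 to 2 lower among contractile targets, each highest value being that without replicate 3. Over all probes, 395 higher and 1 lower calls became 1556 and 248 without replicate 3, 2 and 0 without replicate 1, 1 and 0 without replicate 2, 1 and 0 without background correction or with the software block, 145 and 0 without a filter, 0 and 0 with the methods' t-test, with scaling, with the series table or with the processed signals, 266 and 2 with median centring, 404 and 2 with a signal of at least 20, 461 and 3 with an intensity trend, and 502 and 11 with array weights. With 1 array left out, 2 arrays carry the test. No paired analysis was possible because all arrays form 1 group, and the channels of an array are already compared within it. Dye and genotype cannot be told apart, saturation bounds Hopx and Fhl2, and signal near background left 3 member probes untested.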
